A study of Mus musculus with 6 samples.

Results

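Neurons that express Pomc, the gene for proopiomelanocortin, were compared by the glutamatergic and GABAergic marker transcripts that they carried. The cells came from hypothalami of C57BL/6 mouse pups from POMCDsRed/+ by POMCDsRed/+ matings, and were sorted for the red fluorescence of the Pomc-DsRed transgene. Pups were taken at postnatal day 5 (P5; P6 in the deposited protocol) and at P12, and each age was 1 library made from a pool of at least 6 pups, so neither the sex nor the transgene dose of a single pup is known. The reporter is driven by Pomc regulatory sequence, and all groups described here share the transgene, the sort and the requirement of at least 1 Pomc UMI. Members were chosen by transcript counts: a cell was Pomc-high if at least 10 of every 10000 of its unique molecular identifiers (UMIs, the counted RNA molecules) were Pomc. A Pomc-high cell was called glutamatergic if it had at least 2 UMIs of Slc17a6 and none of Gad1 or Gad2, and GABAergic if it had at least 2 UMIs of Gad1 and Gad2 together and none of Slc17a6. These rules selected 242 glutamatergic and 533 GABAergic cells, 775 in all, of 2362 Pomc-high cells, 7442 postnatal cells and 13953 cells in the series.

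POMC neurons of the arcuate nucleus cut the POMC precursor into α-MSH and β-endorphin, peptides that restrain feeding and modulate reward. They also release fast transmitters. Slc17a6 encodes VGLUT2, which loads glutamate into synaptic vesicles, whereas Gad1 and Gad2 encode the enzymes that make GABA from glutamate, and both kinds of transcript are known to occur in POMC neurons. The comparison asks which other genes differ between the cells that carry only one of these markers.

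The P5 library held 3909 cells and 81593741 UMIs, and the P12 library 3533 cells and 61869340 UMIs, with medians of 18925 and 12653 UMIs per cell. The 2 libraries shared 1 cell barcode. Since each age was a single library, the pair of ages is the only replication of the comparison, and the cells of a pool are not replicates. Levels are given as UMIs of a gene per 10000 UMIs, summed over the cells of a group in 1 library. They are not corrected for transcript length, so levels are compared between cells and not between genes.

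At P5, 209 of 1574 Pomc-high cells (13.3%, exact Clopper-Pearson interval 11.6 to 15.1%) were glutamatergic and 348 (22.1%, 20.1 to 24.2%) were GABAergic. At P12, 33 of 788 (4.19%, 2.90 to 5.83%) were glutamatergic and 185 (23.5%, 20.6 to 26.6%) were GABAergic. The largest class carried both kinds of marker, with 642 cells (40.8%) at P5 and 463 cells (58.8%) at P12, and 145 and 60 cells had neither. The remaining cells had a single UMI of one kind, 84 with Slc17a6 and 146 with Gad1 or Gad2 at P5, and 18 and 29 at P12. Class sizes depended on depth: after each cell was thinned to 10000 UMIs, 16.0% of Pomc-high cells at P5 and 33.8% at P12 carried both kinds, whereas 9.90% and 6.55% were glutamatergic and 15.1% and 25.6% GABAergic. The same rule was applied to microglia-rich cells of low Pomc, a cell type that should lack these transcripts. Of these, 2.84% were classed as glutamatergic and 2.06% as GABAergic among 388 cells at P5, and 1.45% and 1.83% among 1856 cells at P12, at median depths of 10734.5 and 10600 UMIs. After thinning, 0.439% and 1.88% of microglia-rich cells carried both kinds. These intervals cover counting error only.

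**Figure D1:**
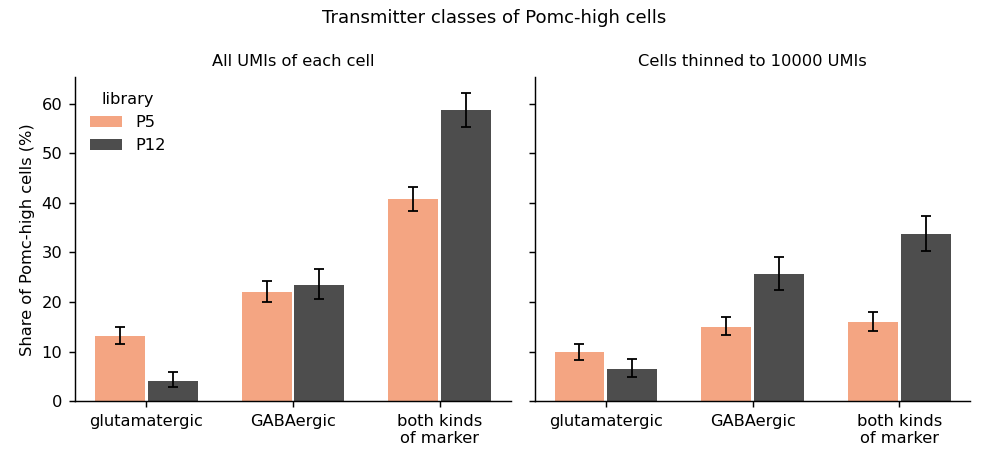
Share of Pomc-high cells (%, vertical axis) in 3 transmitter classes at P5 and P12, with all UMIs of each cell (left) and after thinning each cell to 10000 UMIs (right). Bars are shares within 1 library and error bars are exact 95% binomial intervals. The class with both kinds of marker shrank from 40.8% to 16.0% at P5 and from 58.8% to 33.8% at P12 after thinning.

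The 2 groups also differed in depth and in Pomc itself, which are given as a description because the rule reads both. Median depth was 31372 UMIs in glutamatergic and 23841 UMIs in GABAergic cells at P5, and 28966 and 31262 UMIs at P12. Of the 33 glutamatergic cells at P12, 11 had fewer than 10000 UMIs, against 9 of the 185 GABAergic cells. The median Pomc level per cell was 33.6 UMIs per 10000 in glutamatergic and 48.7 in GABAergic cells at P5, and 26.0 and 47.8 at P12. Glutamatergic cells thus sat lower in Pomc at both ages, although single cells overlapped widely, from 10.0 to 107 in the one group and 10.0 to 161 in the other at P5. Around the threshold at P5, the nearest cells were at 9.85 and 10.0 UMIs per 10000 among glutamatergic cells and at 9.96 and 10.0 among GABAergic cells, and at P12 at 9.03 and 10.1 and at 9.93 and 11.4. By the rule, Gad1 and Gad2 were at 0 in glutamatergic and Slc17a6 at 0 in GABAergic cells. The group totals behind the summed levels were 6494975 and 8385512 UMIs at P5 and 802879 and 5537815 UMIs at P12, so the P12 glutamatergic sum is the least precise of the 4.

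Across all genes, 797 of 12645 genes (6.3%) differed between glutamatergic and GABAergic cells in the summed counts (edgeR quasi-likelihood test with library as a block, adjusted p below 0.05). Of these, 513 (4.06%) were higher in glutamatergic and 284 (2.25%) higher in GABAergic cells, and 782 had the same direction in both libraries. The calls came from a fit to these same 2 libraries, which favours genes that agree, so the 782 are a description and no replication. The count includes the genes used by the rule, 793 remaining without them. DESeq2 on the same sums called 112 genes (0.886%), all of them among the 797, and without library as a block edgeR called 2, with 469 genes at an unadjusted p below 0.05. The edgeR fit assigned the same spread to genes of similar abundance and so did not mark down a gene whose 2 libraries differed in size of effect. The SE values of this fit, given after ±, likewise do not measure how far the 2 libraries differed for a gene. Whether DESeq2 also called them is therefore given for the genes named below.

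Markers of other cells were not equal between the groups, and their part in the results was not tested. The summed level of 6 general neuronal markers was 84.1 in glutamatergic and 70.1 in GABAergic cells at P5, and 49.4 and 42.7 at P12, against 10.3 and 4.30 in microglia-rich cells. Of these 6, Syt1 was higher in glutamatergic cells, by edgeR alone. The 9 microglial markers summed to 1.27 and 1.28 at P5 and to 5.36 and 3.62 at P12, against 231 and 274 in microglia-rich cells. Over both libraries 1 of the 9, C1qb, passed the test, by edgeR alone. At P12, 4 of 33 glutamatergic cells held 85.1% of the 114 C1qb UMIs of their group. None of the 9 was at 0 in either group. Astrocyte markers summed to 1.54 and 1.29 at P5 and to 2.28 and 1.86 at P12. Of these 7 genes, Slc1a2 and Aldoc were higher in glutamatergic and Aqp4 and Slc1a3 in GABAergic cells, by edgeR alone, and Gfap was at 0 in glutamatergic cells of both libraries. The Aqp4 and Slc1a3 levels rested on few cells. At P5, 4 of 348 GABAergic cells held 95.5% of the 22 Aqp4 UMIs and 4 held 93.2% of the 59 Slc1a3 UMIs. At P12, 4 of 185 held 77.0% of the 61 Aqp4 UMIs and 4 held 68.9% of the 90 Slc1a3 UMIs. Markers of KNDy neurons, which make kisspeptin, neurokinin B and dynorphin, summed to 1.26 and 0.693 at P5 and to 6.66 and 1.03 at P12. In that list Kiss1 had 3 and 2 UMIs at P5, 1 in glutamatergic cells at P12 and 0 in GABAergic cells at P12. Tac2, Pdyn and Tacr3 were higher in glutamatergic cells by edgeR alone, and Esr1 did not pass. The Tacr3 call rested on 13 and 6 UMIs at P5 and 10 and 7 at P12, where 4 of 33 glutamatergic cells held 90% of the 10. Markers of Agrp neurons summed to 0.648 and 0.950 at P5 and to 2.52 and 1.33 at P12, those of dopamine neurons to 0.256 and 0.378 and to 0.810 and 1.41, and those of Sst neurons to 0.199 and 0.285 and to 0.0623 and 0.206, with Npy and Slc18a2 higher in GABAergic and Calcr in glutamatergic cells by edgeR alone. No tanycyte, oligodendrocyte or endothelial marker passed, but only 4, 2 and 1 were tested, too few to show that these cells were equal. The called shares were 75.0% of 4 tested KNDy, 66.7% of 6 astrocyte, 40.0% of 5 Agrp and 33.3% of 3 dopamine markers. They were 16.7% of 6 neuronal, 11.1% of 9 microglial and 0% of 2 Sst markers, against 6.3% of all genes. No marker of leptomeningeal, pituitary or red cells was abundant enough to be tested.

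The 15 leading genes higher in glutamatergic Pomc-high cells opened with Cd24a, Tac2 and Thy1. Cd24a, which encodes a small glycoprotein anchored to the membrane of immature neurons, was at 1.36 in glutamatergic and 0.128 in GABAergic cells at P5 and at 1.72 and 0.0524 at P12. Both glutamatergic sums lay above both GABAergic sums, a fitted difference of 15.7-fold (log2 difference 3.97 ± 0.17 SE, adjusted p = 1.16e-112 by edgeR and 5.6e-06 by DESeq2). After thinning, 43.3% of glutamatergic and 8.24% of GABAergic cells at P5 had a Cd24a UMI, and 40.9% and 6.82% at P12, against 6.14% and 2.35% of microglia-rich cells. Before thinning, 12 of 33 glutamatergic and 21 of 185 GABAergic cells at P12 had a Cd24a UMI, so most glutamatergic cells of that age had none, and 4 of the 33 held 65.2% of the 138 UMIs. The log2 difference of Cd24a was 2.90 after thinning, 3.42 without P12 and 5.04 without P5.

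Thy1, another membrane-anchored glycoprotein of neurons, was at 0.921 and 0.185 at P5 and at 1.81 and 0.320 at P12 in glutamatergic and GABAergic cells. The sums of the groups did not overlap, single cells did, and the fitted difference was 5.27-fold (adjusted p = 8.07e-52 by edgeR and 1.46e-18 by DESeq2). Thy1 lies on chromosome 9 at 44043384 to 44048579 and Cd24a on chromosome 10 at 43578284 to 43584265 (GRCm38). In thinned cells Thy1 was found in 39.9% of glutamatergic and 10.6% of GABAergic cells at P5 and in 81.8% and 19.3% at P12, against 3.95% and 9.66% of microglia-rich cells.

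The other leading genes of this direction included Ntrk3, the receptor of neurotrophin-3 (0.744 and 0.373 at P5, 1.32 and 0.302 at P12), Edil3, a secreted matrix protein (1.25 and 0.704, 2.18 and 0.554), and the proteoglycan gene Spock1 (0.858 and 0.367, 0.934 and 0.220). Signalling genes were Npy1r, Adra1b, which encodes an α1-adrenergic receptor (0.730 and 0.349, 0.722 and 0.206), and Kcnq3, a subunit of the potassium channel of the M-current (0.596 and 0.279, 0.648 and 0.123). The transcription factor gene Tcf7l2, an effector of Wnt signals, was at 1.02 and 0.388 at P5 and at 0.772 and 0.293 at P12. Chodl, Tac1, Ifi27 and Cox6a2 differed by 1.24 to 1.45 on the log2 scale, and all of the genes named so far in this paragraph were also called by DESeq2. Vstm2b and Tac2 were not (DESeq2 adjusted p = 0.604 and 0.593).

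The Tac2 difference rested on few cells. Tac2, the precursor of neurokinin B, was at 0.724 and 0.262 at P5 and at 5.27 and 0.139 at P12, a fitted difference of 8.94-fold (adjusted p = 3.73e-79 by edgeR). In the P12 glutamatergic group 4 of the 33 cells held 96.7% of its 423 Tac2 UMIs, and at P5 4 of 209 cells held 83.6%. After thinning, 10.3% of glutamatergic cells at P5 and 31.8% at P12 had a Tac2 UMI, against 18.0% and 18.7% of microglia-rich cells, so the P5 share lay below that background. Without cells of at least 5 Tac2 UMIs per 10000, 3 glutamatergic and 2 GABAergic cells at P5 and 4 and 0 at P12, the log2 difference was 0.39 (adjusted p = 0.491 by edgeR). Of the 30 leading genes of both directions, 29 were still called without those cells.

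**Figure D2:**
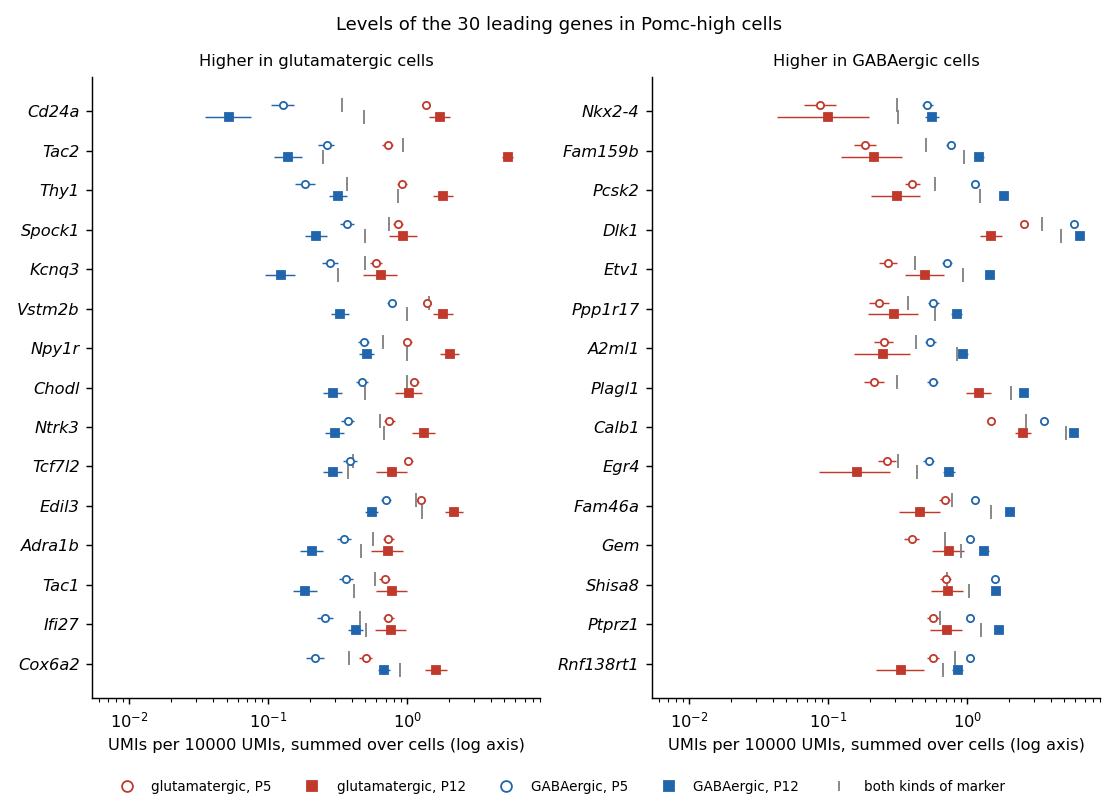
Levels (UMIs per 10000 UMIs, log axis) of the 30 leading genes in glutamatergic (red) and GABAergic (blue) Pomc-high cells at P5 (open circles) and P12 (filled squares), with genes in rows ordered by the size of the fitted difference. Horizontal bars are exact 95% Poisson intervals of the summed UMIs and grey ticks are cells with both kinds of marker, which lay between the other two groups for 28 of these 30 genes, chosen for that difference, at P5 and 30 of 30 at P12.

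The 15 leading genes higher in GABAergic Pomc-high cells opened with Nkx2-4, Fam159b and Pcsk2. Nkx2-4, a homeobox gene of the hypothalamus on chromosome 2 at 147083316 to 147085445, was at 0.516 in GABAergic and 0.0878 in glutamatergic cells at P5 and at 0.558 and 0.0996 at P12. The levels were nearly the same at the 2 ages, and the fitted difference was 5.74-fold (adjusted p = 1.61e-29 by edgeR and 3.48e-07 by DESeq2). In thinned cells it was found in 38.2% of GABAergic and 8.37% of glutamatergic cells at P5 and in 34.7% and 9.09% at P12, against 3.95% and 1.13% of microglia-rich cells. Fam159b was at 0.758 and 0.185 at P5 and at 1.22 and 0.212 at P12 (4.44-fold, adjusted p = 7.82e-32 and 1.32e-09). Etv1, an ETS transcription factor gene, was at 0.712 and 0.269 and at 1.45 and 0.498 (DESeq2 adjusted p = 2.17e-05).

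Pcsk2, which encodes prohormone convertase 2, the enzyme that cuts POMC intermediates towards α-MSH and β-endorphin, was at 1.14 in GABAergic and 0.403 in glutamatergic cells at P5 and at 1.84 and 0.311 at P12. Both GABAergic sums lay above both glutamatergic sums, while single cells overlapped (3.47-fold, adjusted p = 8.41e-26 by edgeR and 7.29e-08 by DESeq2). Calb1, the gene for the calcium-binding protein calbindin, was at 3.59 and 1.49 and at 5.88 and 2.53 (2.37-fold, adjusted p = 9.01e-16 and 1.92e-10). After thinning, 89.7% of GABAergic and 61.6% of glutamatergic cells at P5 had a Calb1 UMI and 96.0% and 72.7% at P12, against 10.1% and 22.0% of microglia-rich cells.

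The imprinted genes Dlk1, a Notch-like ligand, and Plagl1, a zinc finger factor, were both higher in GABAergic cells. Dlk1 was at 5.86 and 2.55 at P5 and at 6.49 and 1.49 at P12, and missed the threshold with DESeq2 (adjusted p = 0.0532). Plagl1 was at 0.566 and 0.214 and at 2.57 and 1.21 (DESeq2 adjusted p = 2.8e-05). The other leading genes of this direction were Ppp1r17, A2ml1, Egr4, Fam46a, Gem, Shisa8, Ptprz1 and Rnf138rt1, by 1.00 to 1.34 on the log2 scale. All but Fam46a were called by DESeq2, and Rnf138rt1 is by its name a copy of Rnf138, so its reads may be shared with that gene. Of the 30 leading genes of both directions, 11 moved by more than 1.5-fold without P5 (Cd24a, Tac2, Kcnq3, Vstm2b, Ntrk3, Edil3, Tac1, Pcsk2, A2ml1, Egr4 and Fam46a, all to larger differences) and 2 without P12 (Tac2 and Vstm2b, to 1.46 and 0.86 on the log2 scale). Thinning moved 4 as far, Cd24a, Tac2, Nkx2-4 and Cox6a2, all to smaller differences.

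Transcription factors known to act on Pomc or in the arcuate nucleus differed in both directions. Of 29 genes in that list, 22 were tested, 4 were higher in glutamatergic and 5 in GABAergic cells and 13 did not pass. That is 40.9% called against 6.3% over all genes, with a median log2 difference of -0.31 against -0.01 over all genes tested. Sox14 had the largest difference, at 0.296 in glutamatergic and 0.0179 in GABAergic cells at P5 and at 0.274 and 0.00903 at P12 (19.7-fold, adjusted p = 7.06e-32 by edgeR and 1.92e-10 by DESeq2). It rested on 192 and 15 UMIs at P5 and on 22 and 5 UMIs at P12, and microglia-rich cells were at 0.172 at P5 and 0.0288 at P12, above GABAergic cells. Without P5 the log2 difference of Sox14 was 4.92, against 4.30 over both libraries. Sox3, a factor of the same family, was at 0.828 and 0.353 and at 1.42 and 0.854 and was also called by DESeq2, with a log2 difference of 1.01 and of 0.31 after thinning. Nr5a1 and Nhlh2 were higher in glutamatergic cells by edgeR alone.

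On the GABAergic side of that list, Six6, an eye and hypothalamus homeobox gene, was at 2.04 and 1.29 at P5 and at 1.53 and 0.573 at P12 and was called by both tests, as was Nkx2-4, whereas Tbx3, Insm1 and Nr4a2 were called by edgeR alone. Isl1, a factor that Pomc expression needs, did not pass, and was at 3.11 in glutamatergic and 3.01 in GABAergic cells at P5 and at 1.83 and 2.24 at P12, with a log2 difference of -0.09 ± 0.14. Nkx2-1 (0.08 ± 0.14) and Prdm12 (0.23 ± 0.15) did not pass either. Of 15 factors of glutamatergic lineages, 5 were tested and 1 passed: Lhx2 was higher in GABAergic cells, at 0.287 and 0.0631 at P5 and at 0.285 and 0.0872 at P12 (4.18-fold, adjusted p = 3.32e-13 by edgeR and 0.00846 by DESeq2). None of 17 factors of GABAergic lineages, such as Dlx1 or Lhx6, was abundant enough to be tested, and in the P12 glutamatergic sum 15 of the 17 were at 0.

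Neuropeptide genes moved in both directions. Of 30, 15 were tested beside Pomc, 3 were higher in glutamatergic cells (Tac1, Tac2 and Pdyn) and 4 in GABAergic cells (Gal, Trh, Npy and Pnoc). That is 46.7% called against 6.3% of all genes, with a median log2 difference of -0.23 against -0.01. Tac1, the precursor of substance P, was the only one also called by DESeq2, at 0.688 and 0.365 at P5 and at 0.772 and 0.184 at P12 (adjusted p = 2.02e-13 by edgeR and 0.00284 by DESeq2). At P12, 4 of 33 cells held 87.1% of the 62 Tac1 UMIs of the glutamatergic group. Gal, the galanin gene, was at 0.0799 in GABAergic and 0.0539 in glutamatergic cells at P5 and at 0.991 and 0.149 at P12, so that most of its difference stood at P12. Npy was at 0.236 and 0.0308 at P5, where 1 GABAergic cell held 80.3% of the UMIs, and at 0.217 and 0.361 in the opposite order at P12. There 1 of 33 glutamatergic cells held 58.6% of the 29 UMIs. Without the cell of most Npy UMIs in each group, the P12 levels were 0.203 in GABAergic and 0.154 in glutamatergic cells. Pdyn, the dynorphin precursor, was at 0.368 and 0.250 and at 0.673 and 0.442 in glutamatergic and GABAergic cells. Cartpt, the precursor of the CART peptides that many POMC neurons carry, changed order between the libraries, from 0.199 and 0.367 at P5 to 5.03 and 2.56 at P12, and did not pass (log2 difference 0.18 ± 0.15). At P12, 4 of 33 glutamatergic cells held 68.1% of the 404 Cartpt UMIs.

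Genes for peptide processing and secretory granules also differed in both directions. Of 14 such genes, all were tested, 3 were higher in GABAergic cells (Pcsk1, Pcsk2 and Pam) and 2 in glutamatergic cells (Chga and Scg2), 35.7% called against 6.3% of all genes. Pam, which amidates α-MSH, was at 1.34 and 0.827 at P5 and at 2.76 and 1.67 at P12 and was called by both tests. Pcsk1, the convertase that makes the first cuts in POMC, was at 0.476 and 0.279 and at 0.901 and 0.735 (DESeq2 adjusted p = 0.909). The granule genes Chga and Scg2 were higher in glutamatergic cells by 1.46-fold and 1.41-fold, by edgeR alone. Cpe, the carboxypeptidase that trims the cut peptides, did not pass (0.12 ± 0.14).

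Of 6 tested genes of GABA handling other than the markers 2 were called (33.3%), and of 9 tested genes of glutamate handling 1 (11.1%), against 6.3% of all genes. Slc32a1, the vesicular GABA transporter gene, was low in both groups, at 0.111 in GABAergic and 0.0200 in glutamatergic cells at P5 and at 0.126 and 0.0125 at P12, where the last value is 1 UMI. Its fitted difference was 5.89-fold (adjusted p = 3.03e-07 by edgeR and 0.0949 by DESeq2), and microglia-rich cells were at 0.0419 at P5 and 0.0657 at P12, above glutamatergic cells. Slc18a2, the vesicular monoamine transporter gene, was the other called gene of the GABA list. It was at 0.231 and 0.125 and at 1.16 and 0.635 (DESeq2 adjusted p = 0.154). Without P5 the log2 difference of Slc32a1 was -3.34, and after thinning it was -1.83 and no longer called. The other 4 tested genes of the GABA list, among them the GABA-degrading enzyme gene Abat (-0.04 ± 0.14), did not pass. Of the glutamate list only Slc1a2 passed, by edgeR alone.

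Receptors through which POMC neurons sense hormones, peptides and monoamines included 7 that differed. Of 31 receptors of energy balance 26 were tested, 6 were higher in glutamatergic cells (Htr2c, Htr1b, Npy1r, Mc3r, Cnr1 and Calcr) and 1, Drd2, in GABAergic cells. That is 26.9% called against 6.3% of all genes, with a median log2 difference of 0.12 against -0.01. Npy1r, a receptor of the NPY released by neighbouring Agrp neurons, was at 1.00 in glutamatergic and 0.485 in GABAergic cells at P5 and at 2.03 and 0.509 at P12 (2.75-fold, adjusted p = 1.52e-20 by edgeR and 6.32e-06 by DESeq2). Mc3r, the melanocortin receptor found on POMC neurons, was at 0.0908 and 0.0167 and at 0.149 and 0.0217 (5.94-fold, adjusted p = 9.99e-07 and 0.0352), from 12 UMIs in each group at P12. The other 5 were called by edgeR alone or, for Htr1b, had no adjusted p with DESeq2, and the Calcr difference was present at P12 (0.934 and 0.172) and not at P5 (0.242 and 0.247), with 70.7% of the 75 glutamatergic UMIs at P12 in 4 of 33 cells. Lepr, the leptin receptor gene, was tested and did not pass, but its counts were low, with 7 and 14 UMIs at P5 and 6 and 21 at P12.

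Among receptors of the 2 transmitters, 2 of 13 tested GABA-A subunits, Gabre and Gabrg1, were higher in GABAergic cells and 2 of 16 tested ionotropic glutamate receptor subunits, Grin2a and Grin2d, in glutamatergic cells. The called shares were 15.4% and 12.5%, against 6.3% of all genes. Gabre was at 0.297 and 0.163 at P5 and at 1.74 and 0.722 at P12 and was the only one of the 4 called by DESeq2 (adjusted p = 0.0146). Grin2a, an NMDA receptor subunit that rises in maturing neurons, was at 0.571 and 0.394 and at 0.735 and 0.213 in glutamatergic and GABAergic cells (DESeq2 adjusted p = 0.0894). Of 21 tested potassium and calcium channels of excitability 1 passed, Kcnq3 (4.76%, below the share of all genes). None of 3 tested genes in a list of monoamine synthesis and transport did. That list left out the vesicular monoamine transporter gene Slc18a2, which was counted with GABA handling and called by edgeR alone.

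**Figure D3:**
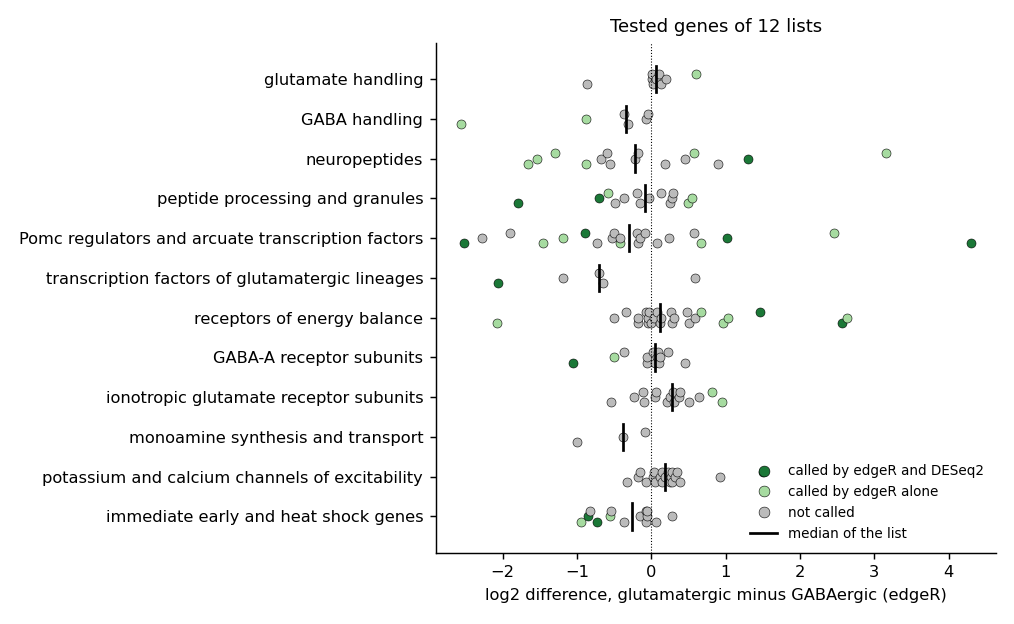
Fitted log2 difference (glutamatergic minus GABAergic, horizontal axis) of each tested gene in 12 gene lists, without the genes used by the rule. Dark green points were called by edgeR and DESeq2, light green by edgeR alone and grey by neither, and black bars are medians of the lists, which ran from -0.71 for 5 factors of glutamatergic lineages to 0.27 for 16 ionotropic glutamate receptor subunits.

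Genes that neurons switch on within minutes of activity included 4 that were higher in GABAergic Pomc-high cells. Of 14 tested immediate early and heat shock genes 4 were higher in GABAergic cells (Fos, Fosb, Junb and Nr4a1), 10 did not pass and none was higher in glutamatergic cells, with a median log2 difference of -0.26 against -0.01 over all genes. The called share was 28.6%, against 6.3% of all genes in either direction and 2.25% higher in GABAergic cells. Egr4 and Gem, which were among the leading genes, are also known to respond to activity. Fos was at 6.17 in GABAergic and 3.27 in glutamatergic cells at P5 and at 3.59 and 2.53 at P12 (1.67-fold, adjusted p = 1.75e-05 by edgeR and 0.00349 by DESeq2). Fosb was at 1.79 and 0.915 and at 1.51 and 0.959, and was also called by both tests. Junb (3.58 and 1.84 at P5, 1.83 and 1.82 at P12) stood apart at P5 and not at P12, and Nr4a1 was at 0.953 and 0.471 and at 0.654 and 0.374, both without a call by DESeq2. The heat shock genes Hspa1a (0.06 ± 0.26) and Hspa1b (-0.16 ± 0.47) did not pass. All cells of an age went through the same papain digestion of 1 hour, and whether the 2 groups responded alike to it was not tested.

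Many activity-dependent promoters carry the cAMP response element, to which the factor CREB binds. Of the 6 genes just named, 5 (all but Gem) had a promoter in the RefSeq set for GRCm38.p6, 250 bases before and 50 after the start of transcription. All 5 contained the half-site TGACG on either strand, which 21.0% of 27025 promoters of that length contained. None contained the full element TGACGTCA or a CArG box, but only 1.88% and 1.57% of the 27025 promoters did. Sequence outside these 250 and 50 bases was not searched, so elements further away would be missed. The promoters of Fos, Nr4a1 and Egr4, a gene called by both tests, one called by edgeR alone and a leading gene, are shown to place these matches, written 5′ to 3′ along the gene's strand with half-sites in capitals. These are matches of letters, and the data hold no measurement of binding.
Fos, chr12:85473640-85473939, plus strand: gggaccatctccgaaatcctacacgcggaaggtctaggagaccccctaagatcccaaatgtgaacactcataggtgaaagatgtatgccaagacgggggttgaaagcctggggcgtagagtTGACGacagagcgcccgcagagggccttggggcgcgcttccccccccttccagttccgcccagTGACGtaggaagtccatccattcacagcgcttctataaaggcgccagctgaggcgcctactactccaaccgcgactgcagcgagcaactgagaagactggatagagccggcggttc
Nr4a1, chr15:101266596-101266895, plus strand: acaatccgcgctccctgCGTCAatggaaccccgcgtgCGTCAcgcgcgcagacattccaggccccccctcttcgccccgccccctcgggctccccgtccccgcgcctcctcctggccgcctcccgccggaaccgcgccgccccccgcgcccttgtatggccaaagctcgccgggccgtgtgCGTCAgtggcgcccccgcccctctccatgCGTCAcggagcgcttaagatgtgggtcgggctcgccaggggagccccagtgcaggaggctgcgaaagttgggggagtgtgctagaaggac
Egr4, chr6:85513540-85513839, minus strand: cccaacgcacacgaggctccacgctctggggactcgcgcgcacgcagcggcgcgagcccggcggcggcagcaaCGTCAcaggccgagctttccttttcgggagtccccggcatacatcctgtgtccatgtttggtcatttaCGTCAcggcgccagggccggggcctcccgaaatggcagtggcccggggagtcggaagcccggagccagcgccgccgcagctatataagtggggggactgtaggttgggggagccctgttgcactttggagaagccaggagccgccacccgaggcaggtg

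Cells that carried both kinds of marker were compared with the 2 groups on the 30 leading genes, which were chosen for the difference between those groups, so the count is a description. For 28 of the 30 the level was between those of glutamatergic and GABAergic cells at both ages. Cd24a was at 0.341 in these cells at P5, against 1.36 in glutamatergic and 0.128 in GABAergic cells. At P12 it was at 0.489, against 1.72 and 0.0524. Pcsk2 was at 0.584 and 1.23 in cells with both kinds of marker at P5 and P12. The exceptions were Tac2 and Vstm2b, at 0.935 and 1.44 in cells with both kinds of marker at P5, above both other groups.

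Pomc-low cells of the same libraries, sorted by the same marker rule, were used to ask where the difference between the transmitter groups depended on the Pomc level. They comprised 548 glutamatergic and 292 GABAergic cells at P5 and 218 and 170 at P12. The difference between the transmitter groups depended on the Pomc level for 211 of 13453 genes (1.57%), 94 with a larger and 117 with a smaller glutamatergic minus GABAergic value in Pomc-high cells (edgeR, interaction of group and Pomc level). Of 9 genes named for a large interaction, 8 had their highest level in Pomc-low cells. Agrp, Npy, Sst and Otp were high in Pomc-low GABAergic cells, with Npy at 9.75 at P5 and 18.0 at P12 and Sst at 4.77 and 11.2, against 0.236 and 0.217 and 0.241 and 0.170 in Pomc-high GABAergic cells. C1ql1, Ebf3, Nrn1 and Nr4a2 were high in Pomc-low glutamatergic cells, with Nr4a2 at 2.05 and 1.26 against 0.0708 and 0.112 in Pomc-high ones. Nr4a2 and Npy were also called between the Pomc-high groups by edgeR, with Npy in opposite orders at the 2 ages. At P12, 1 glutamatergic Pomc-high cell held 58.6% of the Npy UMIs of its group. DESeq2 called the interaction of all 9 but Ebf3 (adjusted p = 0.0581).

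Cd24a was highest in Pomc-high glutamatergic cells at both ages. In Pomc-low cells it was at 0.725 in glutamatergic and 1.15 in GABAergic cells at P5 and at 0.133 and 0.249 at P12, the opposite order to that in Pomc-high cells, and the interaction was 4.83 ± 0.66 on the log2 scale (adjusted p = 0.00217 by edgeR). Of the 30 leading genes, 13 had a called interaction, 8 of those higher in glutamatergic and 5 of those higher in GABAergic cells, among them Npy1r, Chodl, Tcf7l2, Pcsk2, Calb1 and Dlk1. Thy1, Nkx2-4, Fam159b and Etv1 had none (adjusted p = 0.145, 0.521, 0.165 and 0.943), which does not show that their differences were alike in Pomc-low cells.

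**Figure D4:**
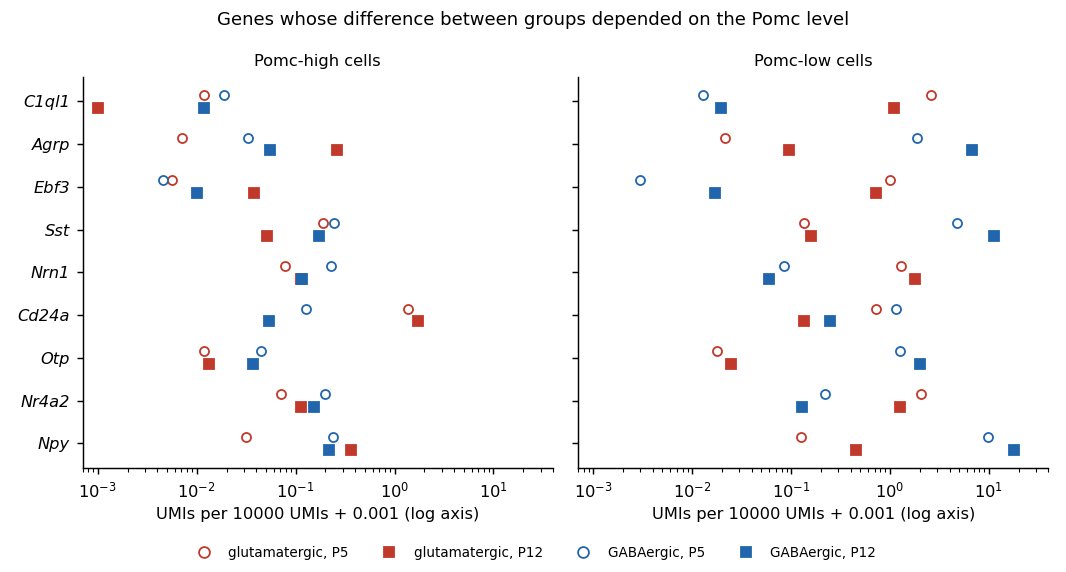
Levels (UMIs per 10000 UMIs plus 0.001, log axis) of 9 genes with large called interactions, in glutamatergic (red) and GABAergic (blue) cells at P5 (open circles) and P12 (filled squares), for Pomc-high cells (left) and Pomc-low cells (right). Cd24a separates the groups on the left, whereas Agrp, Sst, Otp and Npy separate them on the right.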

How the data were processed

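Gene counts came from the P5 and P12 libraries, made with version 3 of the 10x Genomics 3′ kit. The authors counted UMIs with Cell Ranger (2.2.0 and 3.0.0 in the submitters' processing notes, with no library named for either) on mm10, filtered cells by UMIs, genes, mitochondrial and hemoglobin share, required a Pomc UMI in every cell, and left the deposited counts without normalization. The annotation they used is not given in the sources used here. In the files all values were whole numbers.

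UMI counts were summed per library and group and tested with edgeR 4.0.16 (TMM factors, filterByExpr, quasi-likelihood, library as a block, 1 residual degree of freedom per gene) in R 4.3.3, with Benjamini-Hochberg adjustment over all genes tested. SE is the log2 difference over the root of F. DESeq2 1.42.0 was an alternative. The script was tested on simulated data. The members and gene lists were chosen with earlier results of these data known. Genes were named from the lists, as the 15 genes of largest fitted difference each way among called genes of the same direction in both libraries and a level of at least 0.5 in the higher group of each, and as the 10 of largest interaction, of which 1 is not reported here. Microglia-rich cells are Pomc-low cells with at least 50 of 10000 UMIs on 9 microglial genes. Thinning left out cells under 10000 UMIs (6 and 8 glutamatergic and GABAergic cells at P5, 11 and 9 at P12). Shares of cells with a UMI of a gene kept the classes from all UMIs, whereas thinned class shares and the thinned fit classed the cells again (151 and 230 cells at P5, 46 and 180 at P12), so membership and depth changed together. Scrublet (scanpy 1.11.5) called 129 cells at P5 and 72 at P12 as doublets, of which none was removed in the main results. Gene positions are from GENCODE M21 and promoters from RefSeq. The alternatives were other scaling, tests, filters, thresholds, depth, doublet and library choices, of which the limits of 10000 UMIs and of 5 Tac2 UMIs and the robust prior were added after the data were seen.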

Additional observations from a re-analysis of the deposited data

Results flagged for a closer look

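The difference between glutamatergic and GABAergic cells changed with the Pomc level for 9 genes named by the interaction test. On the log2 scale the change was -7.86 for C1ql1, 6.82 for Agrp, -6.19 for Ebf3, 5.50 for Sst, -5.45 for Nrn1, 4.83 for Cd24a, 4.63 for Otp, -4.55 for Nr4a2 and 4.48 for Npy. For Agrp, Sst, Otp and Npy the larger level was in Pomc-low GABAergic cells and for C1ql1, Ebf3, Nrn1 and Nr4a2 in Pomc-low glutamatergic cells.

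Outside the 9 genes above, 7 list genes stood in opposite orders at P5 and P12, with counting intervals excluding 0 in both libraries. Those intervals are of the summed UMIs and take no account of the spread between cells. Whether the differences of these 7 genes themselves differed between the ages was not tested, since each age is 1 library. As log2 ratios of glutamatergic to GABAergic levels, Cartpt was at -0.89 at P5 and 0.97 at P12 (where 4 of 33 glutamatergic cells held 68.1% of its UMIs), Gabra2 at -0.48 and 0.83, Gabrb1 at -0.26 and 0.38, Prlr at -0.51 and 0.55, Slc38a2 at -0.15 and 0.47, Jun at -0.35 and 0.42, and Pcsk1n at 0.08 and -0.14. None of the 7 was called over both libraries. Agrp and Npy, among the 9, also stood in opposite orders, and Npy was called by edgeR. At P12, 1 of 33 glutamatergic cells held 90.5% of the 21 Agrp UMIs of its group, and 1 held 58.6% of the 29 Npy UMIs.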

How the results depend on the processing

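The number of genes that differed between glutamatergic and GABAergic cells depended most on how the spread between the libraries was treated. Against 797 calls, DESeq2 gave 112 (77 higher in glutamatergic cells), and without the replicate block, that is with P5 and P12 taken as plain replicates, edgeR gave 2, so that none of the 30 leading genes was called. Cells thinned to 10000 UMIs gave 337, and Pomc of at least 20 UMIs per 10000 gave 453. The other settings (size factors, no filter on low counts, 3 marker UMIs, doublet scores, cells of at least 10000 UMIs, cells without much Tac2, and a robust prior) gave 665 to 928. The block is the age of the library, which is the pool of pups, and the labels number no further replicates. The interaction gave 211 calls and 117 after thinning, with 146 to 272 in the other settings.

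Of the 30 leading genes, all were called with thinned cells, Pomc of at least 20, 3 marker UMIs or cells of at least 10000 UMIs, 28 with a robust prior (not Tac2 or Vstm2b) and 26 with DESeq2. Among all 72 called genes that the lists and rules name, 36 lost their call with DESeq2 and 16 after thinning. C1qb turned to -0.33 without the highest doublet scores. Leaving out either library gave -0.11 to 1.41 for C1qb, -0.030 to 2.45 for Calcr and -2.94 to 0.74 for Npy. Gabrg1 turned to 0.22 after thinning and Nrn1 to 0.16 as a mean over cells.

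Shares of Pomc-high cells moved beyond their counting interval with the marker limit and with depth. With 3 marker UMIs, 9.09% were glutamatergic and 14.7% GABAergic at P5 and 20.4% GABAergic at P12. Thinning gave 9.90%, 15.1% and 16.0% (both kinds) at P5 and 6.55% glutamatergic and 33.8% with both kinds at P12. Pomc of at least 20 gave 26.7% GABAergic at P12, and cells of at least 10000 UMIs gave 65.0% with both kinds. The 802879 UMIs of 33 cells limit the P12 glutamatergic levels, where 3 UMIs are 0.0374 per 10000.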
